A study of Mus musculus with 4 samples.

Results

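En1, En2, Otx2, Gbx2 and Wnt1 are 5 genes that place and maintain the border between midbrain and hindbrain in the embryo. Their CpG methylation was compared between dopaminergic (DA) neurons made from induced pluripotent stem cells (iPSCs), iPSCs, and primary mesodiencephalic DA (mdDA) neurons. Neural precursors from another reporter line were compared too. The positions were chosen by place alone, as the cytosines that the files list in mm9 windows around En1 (chr1:122494000-122510000), En2 (chr5:28487000-28504000), Otx2 (chr14:49272000-49292000), Gbx2 (chr1:91820000-91832000) and Wnt1 (chr15:98614000-98630000). Of 1519 positions listed there, 346 had at least 5 methylation calls in each of the 4 libraries, among 629259 such positions in the genome. A call is the reading of a cytosine in 1 sequencing read as methylated or unmethylated. Covered positions less than 100 bp apart were joined to a run, which gave 11 runs of at least 10 positions in the windows of 15205 in the genome. These runs held 242 of the 346 positions, and 100 more lay in 21 shorter runs.

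Methylation had been measured by reduced representation bisulfite sequencing (RRBS), in which genomic DNA is cut at CCGG, treated with bisulfite and sequenced, so that CpG-rich DNA next to those sites is read. The 4 groups were represented by 1 library each. The iPSCs carried the Pitx3 Gfp/+ reporter, which puts GFP at 1 allele of the DA neuron gene Pitx3, and had been made from embryonic fibroblasts by retroviral Oct4, Klf4, Sox2 and cMyc. The iPSC-DA neurons were PITX3-GFP-sorted cells of the same genotype after 4 weeks of differentiation on MS5 stromal feeder cells, with Noggin and a TGF-β inhibitor first and SHH, FGF8 and other factors later. The NESTIN-GFP precursors had been collected after 14 days from another reporter genotype, Nestin-Gfp, and the sample label calls them neurons. The mdDA neurons were PITX3-GFP-sorted cells from the ventral midbrain of Pitx3 Gfp/+ embryos at E14.5. Expression was not part of these libraries, so that the labelled cell types were not checked against markers.

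Otx2 and Gbx2 are homeodomain transcription factors that oppose each other, Otx2 on the midbrain side and Gbx2 on the hindbrain side, and the border forms where their domains meet. There the isthmic organiser arises, with the secreted signals Wnt1 and Fgf8, and the homeodomain factors En1 and En2 are switched on across it. In the ventral midbrain, Wnt1 and Otx2 act in DA progenitors, and En1 and En2 are needed for the survival of mdDA neurons. Promoters of such developmental genes lie in CpG islands, which are usually free of methylation.

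The sequences just before the Wnt1 and En1 start sites are shown because the libraries read CpGs in them directly. They are the 250 bases before the start in RefSeq's GRCm38.p6 promoter table, placed on the positions of the files by the spacing of their CpGs. Capitals mark cytosines with at least 5 calls in all 4 libraries, and a capital G marks the cytosine on the opposite strand.
Wnt1, chr15:98620038-98620287, plus strand: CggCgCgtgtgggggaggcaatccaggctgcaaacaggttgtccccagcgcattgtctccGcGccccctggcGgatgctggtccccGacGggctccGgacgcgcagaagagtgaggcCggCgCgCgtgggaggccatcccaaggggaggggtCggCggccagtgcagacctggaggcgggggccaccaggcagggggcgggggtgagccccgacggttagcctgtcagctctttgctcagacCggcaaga
En1, chr1:122498814-122499063, plus strand: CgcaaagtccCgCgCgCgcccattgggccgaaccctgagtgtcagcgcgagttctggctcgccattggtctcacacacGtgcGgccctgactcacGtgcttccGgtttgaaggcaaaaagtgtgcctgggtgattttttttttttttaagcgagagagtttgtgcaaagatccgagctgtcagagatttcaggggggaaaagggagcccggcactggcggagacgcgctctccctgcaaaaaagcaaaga
The Wnt1 stretch held 23 CpGs and 3 CCGG sites, with 16 cytosines measured in all libraries. The En1 stretch held 19 CpGs and 2 CCGG sites, with 9 cytosines measured. The median over all 32851 promoter sequences of this length was 6 CpGs, and 47.1% of them held at least 1 CCGG, which reads the same on both strands. Among the 16 Wnt1 cytosines, the levels in iPSC-DA neurons ranged from 7.41 to 69.7% with a median of 52.7%, while mdDA neurons reached at most 16.1% with a median of 2.68%. Among the 9 En1 cytosines, iPSC-DA neurons ranged from 25.4 to 46.9% and mdDA neurons from 0.0 to 19.3%. These ranges did not overlap, whereas those of Wnt1 did. How often other promoters show such a gap was not counted. The highest mdDA value of each stretch, 16.1% at Wnt1 and 19.3% at En1, fell on a cytosine of a CCGG site, where the DNA is cut. Whether the cut site affects these levels was not tested. Of the other members, Gbx2 was placed too, but none of the 250 bases before its start was covered in all libraries. The Otx2 sequences could not be placed, and En2 had no entry in the table.

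All 11 runs were low in mdDA neurons and iPSCs and intermediate in iPSC-DA neurons. The level of a run is the share of its calls that were methylated. It lay between 3.23 and 6.59% in mdDA neurons, between 2.61 and 7.35% in iPSCs, and between 28.1 and 48.4% in iPSC-DA neurons, with medians of 4.94, 3.94 and 37.7%. The NESTIN-GFP precursors spanned 1.32 to 35.0% with a median of 15.2%. The lowest run of the iPSC-DA neurons thus lay above the highest run of the iPSCs and of the mdDA neurons, whereas the precursors overlapped with all other groups. Over all 15205 runs the medians were 4.02% in iPSCs, 8.20% in precursors, 7.33% in iPSC-DA neurons and 4.95% in the primary mdDA neurons, so that the members stood near the genome's median in iPSCs and mdDA neurons.

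**Figure D1:**
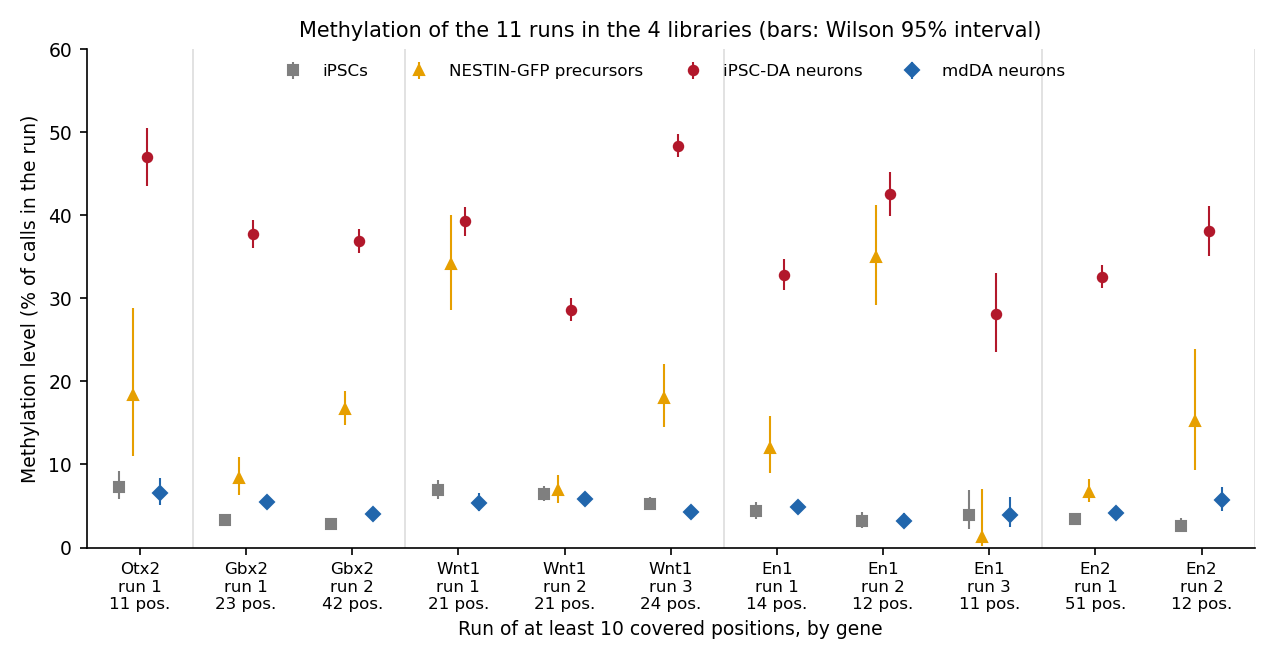
Methylation level in percent of calls (y axis) of the 11 runs of at least 10 positions, grouped by gene (x axis, with the number of positions); points are the 4 libraries and bars Wilson 95% intervals of the counts. The iPSC-DA neurons sit between 28.1 and 48.4% in every run, the iPSCs and mdDA neurons lie between 2.61 and 7.35%, and the precursors vary from 1.32 to 35.0%.

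The main comparison of the study sets iPSC-DA neurons against mdDA neurons. Methylated and unmethylated calls of each run were set against each other by Fisher's exact test, two-sided, with p-values adjusted after Benjamini-Hochberg for all runs of the genome. A run was called at an adjusted p under 0.05 if its levels were also at least 20 percentage points apart. All 11 runs were called higher in iPSC-DA neurons and none lower, where 27.6% of all runs were called higher and 0.243% lower. The differences ran from 22.9 to 44.1 points with a median of 32.4, against a median of 0.802 over all runs, and the largest adjusted p of Fisher's exact test was 3.39e-22. The test compares the reads of 2 libraries and not the conditions. Calls in the same read or PCR copies of it are not independent. These p-values are therefore too small, and all intervals given here for runs, genes and promoters are too narrow. Position by position, 190 of the 242 cytosines in the runs (78.5%) were at least 20 points higher in iPSC-DA neurons and 0 were as much lower, where 25.4% of all positions in runs were that much higher and 0.745% that much lower. By gene, 64 of 65 Gbx2 positions, 9 of 11 Otx2, 30 of 37 En1, 43 of 63 En2 and 44 of 66 Wnt1 positions were at least 20 points higher. Of the 242, 2 had a lower level in iPSC-DA neurons, 1 at Otx2 (-7.69 points, on 6 iPSC-DA calls) and 1 at Wnt1 (-0.27 points). The share of all positions with a lower level is not given here.

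Otx2, the anterior factor of the pair, had 1 run of 11 positions (chr14:49275153-49275308), which is little for a window with 46 covered positions. Its level was 7.35% in iPSCs, 18.3% in precursors, 47.0% in iPSC-DA neurons and 6.59% in the primary mdDA neurons. The iPSC-DA neurons were the highest, 40.4 points over the mdDA neurons (Newcombe 95% interval 36.5 to 44.2) on 779 and 941 calls. The single positions were uneven in iPSC-DA neurons, from 0.0 to 83.3% with an SD of 22.5 points, the widest spread of any of the 11 runs in that library. Both ends of this range rest on 6 iPSC-DA calls each. The other positions of the run had more calls and ran from 15.8 to 60.4%, and their SD was not computed. The precursor value rests on 71 calls, and its Wilson interval of 11.0 to 28.8% is the widest of the precursor levels among the runs.

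Around Otx2, 7 shorter runs of 2 to 7 positions took very unlike levels. A run of 6 positions before the long one (chr14:49274413-49274433) was at 6.95% in iPSCs, 60% in precursors, 60.6% in iPSC-DA neurons and 11.7% in the primary mdDA neurons. Both differentiated in vitro groups were thus high there, though the precursor value rests on 30 calls at 6 positions that all read the same 60%. A run of 4 positions farther along (chr14:49285183-49285203) was at 95.8% in precursors on 24 calls, at 52.3% in iPSC-DA neurons, and at 5.36% and 7.81% in iPSCs and mdDA neurons. In contrast, a run of 7 positions (chr14:49288650-49288747) was low in all 4 libraries, at 3.86, 7.61, 6.43 and 5.46% in iPSCs, precursors, iPSC-DA neurons and mdDA neurons. It was the only run of at least 5 positions in the 5 windows in which iPSC-DA and mdDA neurons differed by less than 5 points.

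Gbx2, the posterior factor, lies on the minus strand, and its promoter window was placed at chr1:91827702-91828001 with 34 of 35 covered positions on a CpG. The larger run (chr1:91827372-91827727, 42 positions) reached from 24 to 379 bp behind the start and was at 2.89% in iPSCs, 16.7% in precursors, 36.9% in iPSC-DA neurons and 4.08% in the primary mdDA neurons. The second run (chr1:91826894-91827067, 23 positions), 684 to 857 bp behind the start, was at 3.35, 8.32, 37.7 and 5.46% in the same order. In both runs the iPSC-DA neurons were even from position to position, with SDs of 7.49 and 6.71 points and no position under 25.3%. The iPSC-DA minus mdDA differences were 32.8 points (31.2 to 34.4) and 32.3 points (30.4 to 34.1), with overlapping intervals. A run of 8 positions 2181 to 2252 bp behind the start (chr1:91825499-91825570) was higher still, at 50% in iPSC-DA neurons against 4.51% in mdDA neurons.

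Wnt1, the signal of the organiser, had 3 runs, which differed in level in iPSC-DA neurons by more than those of any other member. The first (chr15:98620038-98620358, 21 positions) spans the start, from 250 bp before to 70 bp behind it, and was at 6.87% in iPSCs, 34.1% in precursors, 39.3% in iPSC-DA neurons and 5.39% in the primary mdDA neurons. Here the precursors were high too, with a Wilson interval of 28.6 to 40% that overlapped the 37.5 to 41.1% of the iPSC-DA neurons. The second (chr15:98621417-98621776, 21 positions), 1129 to 1488 bp behind the start, was at 6.47% in iPSCs, 6.88% in precursors, 28.7% in iPSC-DA neurons and 5.79% in the primary mdDA neurons, so that only the iPSC-DA neurons were high. The third (chr15:98622196-98622405, 24 positions), 1908 to 2117 bp behind the start, was at 5.28, 18.0, 48.4 and 4.28%.

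The third Wnt1 run had the largest iPSC-DA minus mdDA difference of the 11, 44.1 points (42.5 to 45.6), which exceeded that of 96.1% of all runs in the genome. The second had the smallest, 22.9 points (21.3 to 24.4). The intervals of the 3 Wnt1 runs did not overlap in iPSC-DA neurons, with 37.5 to 41.1%, 27.3 to 30.1% and 47.0 to 49.8% from the first to the third. They take calls in the same read as independent, so that the gaps between them are overstated. Within the first run, the iPSC-DA levels of single cytosines ran from 7.41 to 69.7%, and the SD of 19.4 points was more than that of the Gbx2 runs.

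En1 had 3 runs, and its promoter window matched at 26 of 26 covered positions. The first run (chr1:122498789-122498917, 14 positions), at -275 to -147 bp from the start, was at 4.38% in iPSCs, 12.0% in precursors, 32.9% in iPSC-DA neurons and 4.94% in the primary mdDA neurons. The second (chr1:122499626-122499750, 12 positions), 562 to 686 bp behind the start, was at 3.2, 35.0, 42.5 and 3.23% in the same order. The third (chr1:122500226-122500345, 11 positions), 1162 to 1281 bp behind the start, was at 3.94, 1.32, 28.1 and 3.9%. The iPSC-DA neurons were the highest group in each, and the precursors changed most from run to run. The third run had the fewest iPSC-DA calls of the 11, 342, with 76 precursor calls, and its iPSC-DA positions ran from 4.0 to 55.6%.

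En2 had the run with the most positions of all members, 51 over 338 bp (chr5:28492412-28492749), at 3.47% in iPSCs, 6.73% in precursors, 32.6% in iPSC-DA neurons and 4.19% in the primary mdDA neurons. A second run (chr5:28492871-28492943, 12 positions) was at 2.61, 15.2, 38.1 and 5.69%. In both, the iPSC-DA neurons were the highest group, with differences to mdDA neurons of 28.4 points (26.9 to 29.9) and 32.4 points (29.1 to 35.7). A run of 9 positions farther along (chr5:28501924-28502007) did not follow, at 14.49% in iPSCs, 28.0% in precursors, 17.4% in iPSC-DA neurons and 12.3% in the primary mdDA neurons.

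**Figure D2:**
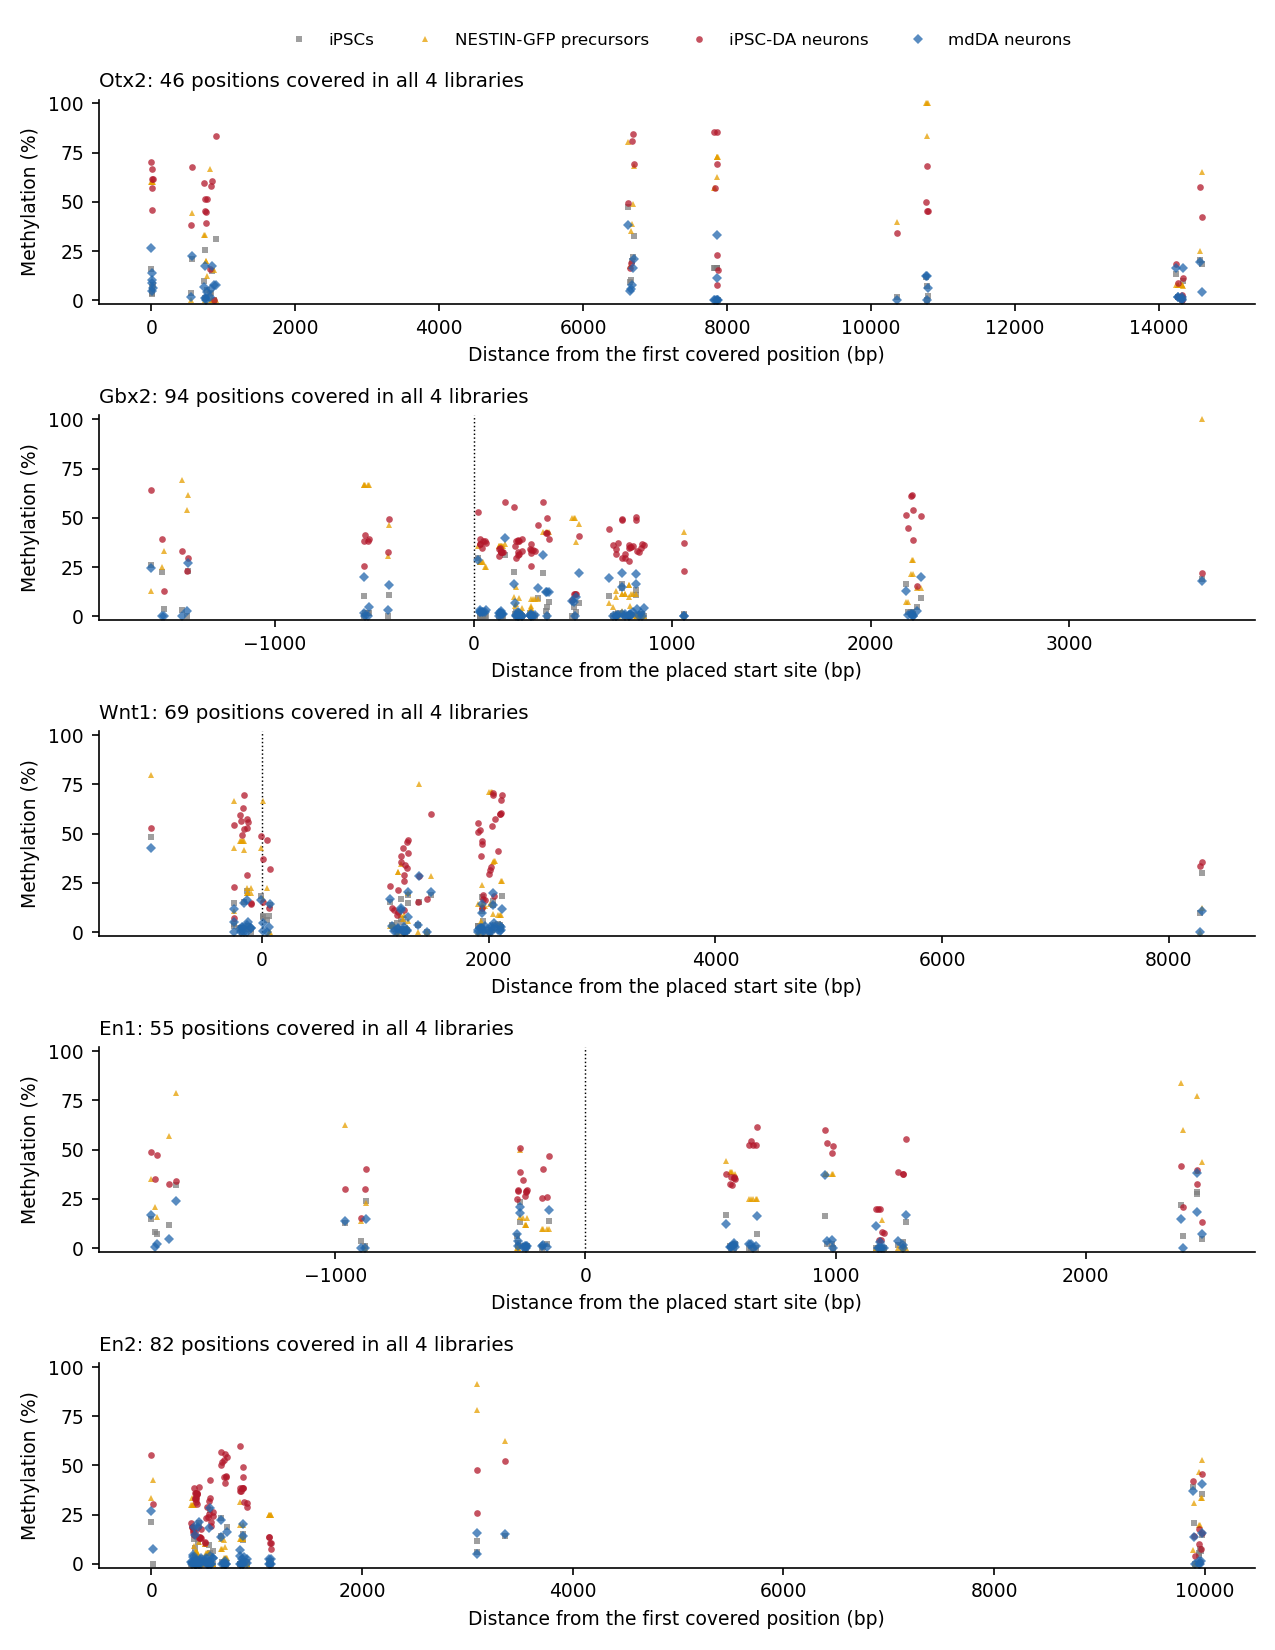
Methylation in percent (y axis) of each of the 346 cytosine positions covered in all 4 libraries, by distance in bp from the placed start site (dotted line) for Gbx2, Wnt1 and En1 and from the first covered position for Otx2 and En2 (x axis); each point is 1 position in 1 library. Most red points (iPSC-DA neurons) lie between 20 and 80%, above the blue and grey points (mdDA neurons and iPSCs), and the precursors, in orange, scatter from 0 to 100%.

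Pooled over the runs of a gene, the levels of mdDA neurons and iPSCs lay in narrow ranges. The mdDA neurons lay between 4.27% at En1 and 6.59% at Otx2, and the iPSCs between 3.06% at Gbx2 and 7.35% at Otx2. In iPSC-DA neurons the order was Otx2 with 47.0% (43.5 to 50.5), Wnt1 with 39.3% (38.5 to 40.2), Gbx2 with 37.3% (36.2 to 38.4), En1 with 35.5% (34.1 to 37.0) and En2 with 33.6% (32.4 to 34.9). The intervals of Gbx2 and En1 overlapped, as did those of En1 and En2, while those of the other neighbours in this order did not. The runs of Wnt1 alone spread from 28.7 to 48.4% and those of En1 from 28.1 to 42.5%, ranges that hold all 5 pooled values or all but that of Otx2. The iPSC-DA minus mdDA difference was 40.4 points at Otx2 (36.5 to 44.2), 34.2 at Wnt1 (33.2 to 35.2), 32.6 at Gbx2 (31.4 to 33.8), 31.3 at En1 (29.7 to 32.8) and 29.2 at En2 (27.8 to 30.6). Otx2 entered these values with 1 run only. Over all positions covered in 4 libraries, the order in iPSC-DA neurons was kept. The intervals of Otx2 with 41.0% (39.4 to 42.6) and Wnt1 with 39.3% (38.4 to 40.2) then overlapped. Over runs of at least 5 positions, the iPSC-DA minus mdDA difference of Otx2 fell to 29.9 points. It then lay under Wnt1 with 34.2, Gbx2 with 32.8 and En1 with 30.6, and over En2 with 25.1. With 1 library per group the intervals hold counting error only. They are also too narrow, as calls in the same read are not independent, so that they do not settle the order of the genes.

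The same picture was seen with the DA libraries alone. When coverage was asked of iPSC-DA and mdDA neurons and not of all 4 libraries, the windows held 515 covered positions, of which 375 fell in 12 runs of at least 10. All 12 were called higher in iPSC-DA neurons, where 27.6% of all 17692 runs were. The En2 run then grew to 117 positions over chr5:28492184-28493181, at 33.8% in iPSC-DA neurons and 5.08% in the primary mdDA neurons, and a further En2 run (chr5:28493549-28493713, 11 positions) stood at 30.3% and 5.21%. A Gbx2 run before the start (chr1:91828058-91828305, 11 positions) was also added, at 40.7% and 7.35%. The 21 shorter runs, which were given no test, were at least 20 points higher in iPSC-DA than in mdDA neurons in 16 cases and at least 20 points lower in 0, where 15.7% of all runs of 2 to 9 positions were that much higher and 8.55% that much lower.

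Most member cytosines were intermediate in iPSC-DA neurons rather than methylated in full. Of the 242 positions in the runs, 202 (83.5%) lay between 20 and 80% in that library, 39 were under 20% and 1 was over 80%. Over all positions in runs of the genome, 32.5% lay between 20 and 80% in iPSC-DA neurons. In the narrower range of 40 to 60% were 26.4% of the member positions and 11.2% of all. In mdDA neurons, 94.6% of the member positions were under 20%, and 95.5% in iPSCs. Of all positions in runs, 87.4% in mdDA neurons and 92.1% in iPSCs were under 20% too. A level between the extremes can come from partial methylation in every cell or from full methylation in some cells, and these calls cannot tell the cases apart. Nor does bisulfite tell 5-methylcytosine from 5-hydroxymethylcytosine.

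The strands of a CpG are covered by different reads, so that neighbouring positions give a check within a library. At 38 pairs of neighbouring positions, the median absolute difference between the strands was 6.58 points in iPSC-DA neurons, 7.22 in precursors, 1.06 in iPSCs and 1.42 in mdDA neurons. The counting error of these differences had a median SD of 6.37, 7.44, 1.36 and 1.47 points in the same order. An SD and a median absolute difference are unlike measures, so these values do not show whether counting error accounts for the differences. At least 20 points apart were 3 pairs in iPSC-DA neurons, 5 in precursors, 0 in iPSCs and 1 in mdDA neurons. The medians of the strands in iPSC-DA neurons were 38.6 and 36.5%, so that both strands were intermediate.

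Set against iPSCs of the same genotype, iPSC-DA neurons were higher in all 11 runs and lower in none, where 33.4% of all runs were called higher and 0.0921% lower. The differences ran from 22.2 points in the second Wnt1 run to 43.1 points in the third, with a median of 34.0 against 2.43 over all runs. At the level of positions, 194 of 242 (80.2%) were at least 20 points higher and 0 that much lower, where 29.2% and 0.188% of all positions were. By gene the gain was 39.6 points at Otx2 (35.7 to 43.5), 34.2 at Gbx2 (33.0 to 35.4), 33.2 at Wnt1 (32.2 to 34.2), 31.7 at En1 (30.05 to 33.3) and 30.4 at En2 (29.0 to 31.7). Over runs of at least 5 positions, the gain at Otx2 was 31.0 points. It then lay under Gbx2 with 34.4 and Wnt1 with 33.2, and over En1 with 29.4 and En2 with 26.4. The values against iPSCs share the iPSC-DA library with those against mdDA neurons and are no second observation of it.

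The mdDA neurons and the iPSCs lay close to each other at all members. None of the 11 runs was called in either direction, where 6.47% of all runs were called higher and 0.289% lower in mdDA neurons. The differences ran from -1.48 points in the first Wnt1 run to 3.08 points in the second En2 run (1.48 to 4.83), and 3 runs had an adjusted p under 0.05 in Fisher's exact test, the same number as without adjustment. By Fisher's exact test these were the second En2 run (adjusted p = 1.15e-03) and both Gbx2 runs (2.10 points, adjusted p = 1.12e-03, and 1.19 points, adjusted p = 1.33e-02). How many of all runs pass by adjusted p alone is not given here. Of the 242 positions, 0 were at least 20 points higher in mdDA neurons and 1 was that much lower, where 4.6% of all positions were that much higher and 0.29% that much lower.

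From iPSCs to precursors, most runs differed in the test but few by 20 points. Of the 11 runs, 2 were called higher in precursors and none lower, where 18.3% of all runs were called higher, a share like that of the members. These were the second En1 run (31.8 points, 25.9 to 38.1) and the Wnt1 run at the start (27.2 points, 21.6 to 33.2). With neighbouring positions merged as the strands of a CpG, 0 of 10 runs were called in this comparison. Differences of 11.0 to 13.8 points stood at the Otx2 run, the larger Gbx2 run, the third Wnt1 run and the second En2 run, and 9 runs in all had an adjusted p under 0.05 in Fisher's exact test. The third En1 run (-2.63 points, -5.80 to 3.39) and the second Wnt1 run (0.414 points, -1.38 to 2.48) did not pass. The share of all runs that pass by adjusted p alone, without the 20 points, is not given here. Position by position, 64 of 242 (26.4%) were at least 20 points higher in precursors and 2 that much lower, where 19.8% and 2.33% of all positions were. Of the 21 shorter runs, 14 were at least 20 points higher and 0 lower, where 54.0% and 0.194% of all such runs were; the median over the 21 was 25.4 points and over all such runs 22.5. Over the runs of at least 10 positions, the precursor levels by gene were 19.1% at En1, 18.3% at Otx2, 14.4% at Wnt1, 14.2% at Gbx2 and 7.33% at En2. Over all positions covered in 4 libraries they were 26.3% at En1, 41.0% at Otx2, 15.8% at Wnt1, 18.0% at Gbx2 and 12.4% at En2, so that the order changed. The precursor minus iPSC difference at Otx2 moved from 11.0 to 31.9 points when runs of at least 5 positions were counted. Depth was lowest in the precursor library, where the median member position had 14 calls, against 97 in iPSCs, 93.5 in mdDA neurons and 85 in iPSC-DA neurons, and it came from another reporter line, so that step and line cannot be told apart.

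From precursors to iPSC-DA neurons, 9 of the 11 runs were called higher and none lower, where 16.1% of all runs were called higher and 4.68% lower. These groups came from different reporter lines, so that step and line cannot be told apart here either. The exceptions were the runs with the highest precursor levels. They were the second En1 run (7.50 points, 0.696 to 13.9, adjusted p = 4.41e-02) and the Wnt1 run at the start (5.19 points, -0.979 to 10.9, adjusted p = 0.128), both by Fisher's exact test. The comparisons with precursors share 1 precursor library, so that a high level there lowers this difference by itself. The third Wnt1 run differed most, by 30.4 points (26.0 to 34.1). With a minimum of 10 calls, 5 of the 8 runs left were called higher. Of the 242 positions, 139 (57.4%) were at least 20 points higher and 6 that much lower, where 20.1% and 8.99% of all positions were. The shorter runs were mixed, with a median difference of -1.18 points over the 21 and of -7.57 over all such runs. Of the 21, 3 were at least 20 points higher and 5 at least 20 points lower in iPSC-DA neurons, where 3.63% and 27.1% of all such runs were. Among those lower were the Otx2 run that stood at 95.8% in precursors and an En1 run of 5 positions (chr1:122501446-122501530), which was at 17.5% in iPSCs, 61.9% in precursors, 29.6% in iPSC-DA neurons and 14.03% in the primary mdDA neurons. With runs of at least 5 positions counted, Otx2 as a whole was no longer higher in iPSC-DA neurons than in precursors (-0.863 points, against 28.7 over its long run).

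**Figure D3:**
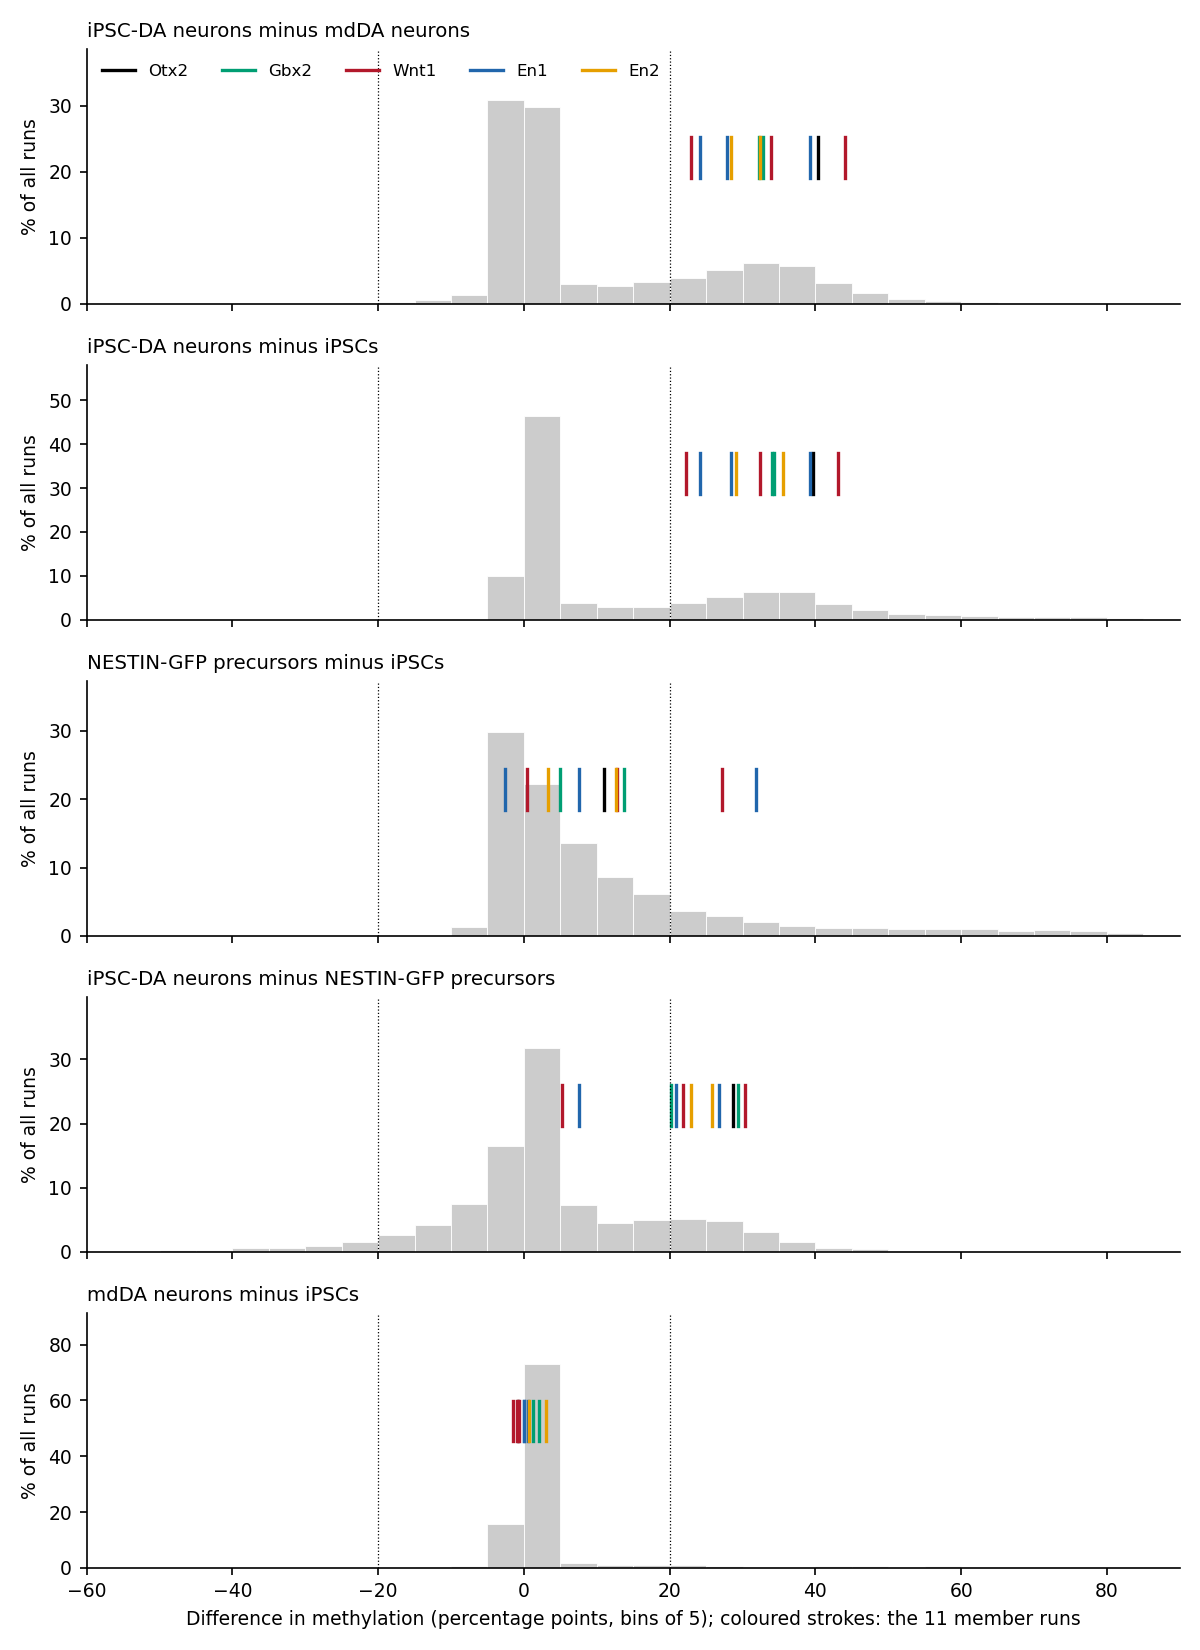
Difference in methylation in percentage points (x axis) over all 15205 runs, as the percent of runs in bins of 5 points (y axis, grey bars), for the 5 comparisons; coloured strokes are the 11 member runs by gene and dotted lines mark 20 points in either direction. The strokes lie between 22.9 and 44.1 points for iPSC-DA minus mdDA neurons, inside the right-hand hump of the grey bars, and between -1.48 and 3.08 points for mdDA neurons minus iPSCs.

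Other genes of the midbrain-hindbrain network were read where their promoters could be placed. Of 16 genes listed, 11 had a promoter sequence, 9 were placed, 7 had a covered position in the window from 250 bp before to 50 bp behind the start, and 4 had at least 10 positions (Cnpy1, Pax2, Sp8 and Wnt3a). Fgf8, Pax5 and Otx1 were not among those placed. All 4 were at least 20 points higher in iPSC-DA than in mdDA neurons, from 24.7 to 40.6 points, where 17.8% of 3982 promoters with as many positions were that much higher and 0.1% that much lower. Against iPSCs, 4 of 4 were higher by as much (19.0% of all promoters), 1 of 4 was in precursors against iPSCs (9.54%), and 3 of 4 in iPSC-DA neurons against precursors (11.2% of all, with 4.24% lower). None differed by as much between mdDA neurons and iPSCs, where 0.829% of all were higher and 0.0251% lower.

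Pax2, an early factor of the midbrain-hindbrain region, had 2 placed promoters. The one with 18 positions was at 3.36% in iPSCs, 4.11% in precursors, 33.4% in iPSC-DA neurons and 3.71% in the primary mdDA neurons, and the one with 4 positions at 8.32, 5.47, 40.1 and 9.86%. Lmx1b, a LIM-homeodomain factor of DA progenitors, had 8 positions at 6.78, 27.5, 47.2 and 6.04%, so that its precursors were partly raised. The promoter of Sp8, a zinc-finger factor, was the highest of these genes in iPSC-DA neurons at 48.7%. Cnpy1, a regulator of FGF signalling, was the one network promoter higher in precursors (46.1%) than in iPSC-DA neurons (31.8%). Spry2, an inhibitor of FGF signalling, was low in all 4 libraries at 4.17, 1.65, 5.95 and 4.98%. Its iPSC-DA value rests on 84 calls at 7 positions (Wilson interval 2.57 to 13.2%). Il17rd, another inhibitor of FGF signalling, had 3 positions at 9.04% in iPSCs, 0.0% in precursors (62 calls, Wilson interval up to 5.83%), 32.5% in iPSC-DA neurons and 10.8% in the primary mdDA neurons. Of the members in the same window, Wnt1 (19 positions) was at 6.39, 36.6, 42.1 and 4.93%, Gbx2 (6 positions) at 4.88, 29.0, 39.7 and 6.60%, and En1 (9 positions) at 2.39, 11.4, 32.1 and 3.32%.

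**Figure D4:**
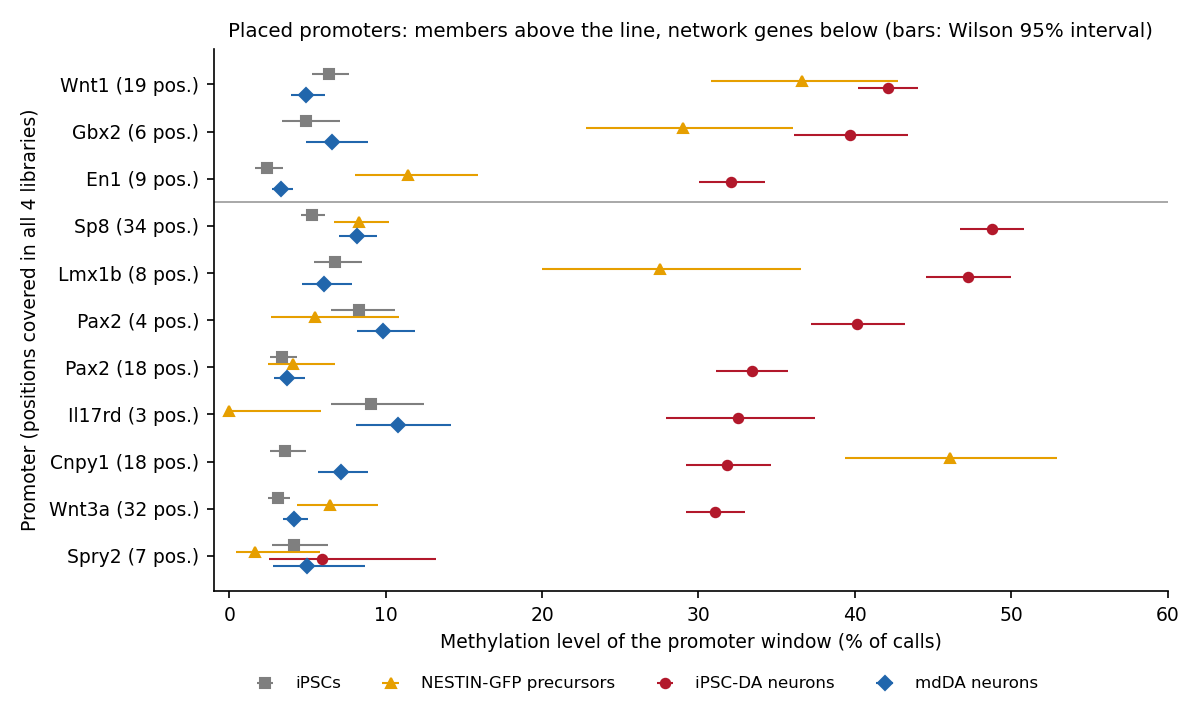
Methylation level in percent of calls (x axis) of the placed promoter windows with at least 1 position covered in all 4 libraries (y axis, with the number of positions), members above the line and network genes below it; points are the 4 libraries and bars Wilson 95% intervals. The iPSC-DA neurons lie between 31.1 and 48.7% at every promoter but that of Spry2, which is at 5.95% on 84 calls.

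The pattern of the Wnt1 promoter, low in iPSCs and mdDA neurons and raised in precursors and iPSC-DA neurons, was also found at other genes. By the mean absolute difference of the level over the 4 libraries, the nearest of the promoters with at least 10 positions were those of Ednrb, an endothelin receptor (0.976 points), Ptprt, a receptor tyrosine phosphatase (1.13 points), and Sowahb (1.58 points). Within 5 points of Wnt1 were 99 genes of the 3982.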

How the data were processed

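RRBS libraries of mdDA neurons, iPSC-DA neurons, iPSCs and NESTIN-GFP precursors were used, 1 library each and grouped by their labels. Per the labels, reads cut at MspI sites were checked with FastQC, trimmed with Trim Galore 0.3.5 and aligned and called with Bismark 0.10.1; the methods add Bareback. The authors deposited, for each cytosine position, the counts of methylated and unmethylated calls, not normalized, and the percent methylated, which was not used in the tests. The build is not given in the sources used here, and the chromosome lengths fit mm9. Between 31419979 and 79648099 calls were listed per library at 1328656 to 2550167 positions. This depth sets the intervals, which cover counting error only. They are too narrow, since calls in the same read are taken as independent and PCR copies cannot be told from separate molecules.

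Positions with at least 5 calls in all 4 libraries, on the 19 autosomes and X, less than 100 bp apart formed runs, and runs of at least 10 positions were compared by two-sided Fisher's exact test with Benjamini-Hochberg adjustment over all 15205 runs (numpy 2.4.6, numba 0.67.0 and pandas 2.3.3 under Python 3.11.15), with Wilson intervals for levels and Newcombe intervals for differences, both at 95%. The test was tried on simulated data first. No library had a replicate, so that spread between samples of a group is unknown. No genome of the build was used. RefSeq promoter sequences (GRCm38.p6) were placed where at least 20 covered positions and at least 95% of those in the span fell on CpG cytosines, and the next best place had at most 0.7 times as many matches. A minimum of 10 matches was planned and raised after the data were seen, because wrong places reached 12, and other places were counted only where they too met the 95% rule. Of 32851 sequences, 7744 were placed, and all 7733 distinct places followed the chromosome order of RefSeq.

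Named were the 5 genes with every run of at least 10 positions, Fgf8, Pax2, Pax5, Lmx1b and Otx1 where a promoter was placed, and the 3 promoters nearest to a member with at least 10 promoter positions; shorter runs and the other network promoters were named after their values were seen. The genes and lists were chosen with earlier results of these data known. Alternatives in call minimum, strands, weighting, depth cap, libraries asked for coverage, gap, run length and threshold were tried. Expression arrays of the study were not analysed here.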

Additional observations from a re-analysis of the deposited data

How the results depend on the processing

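No paired analysis was possible because each group had 1 library, which also leaves no replicate to leave out. All runs left in the windows were called higher in iPSC-DA neurons than in mdDA neurons and than in iPSCs under every alternative but 3. With runs of at least 5 positions, 18 of 23 (24.3% of all runs) and 17 of 23 (37.4%) were called. With a difference of at least 30 points, 7 of 11 (18.6%) and 7 of 11 (24.4%) were called. The unweighted mean of positions left 10 of 11 against mdDA neurons (27.6% of all runs). The comparisons with precursors moved most. From iPSCs to precursors, in place of 2 of 11 runs, 11 of 23 were called higher with runs of at least 5 positions (34.8% of all), 6 of 11 at 10 points (33.1%), 1 of 11 at 30 points (11.8%), and 0 of 10 with neighbouring positions merged as the strands of 1 CpG (15.7%). From precursors to iPSC-DA neurons, in place of 9 of 11, 5 of 8 were called higher with a minimum of 10 calls (18.2% of all), 10 of 23 with runs of at least 5 positions (11.3%), 7 of 11 with a minimum of 1 call (13.7%) and as an unweighted mean of positions (14.7%), and 1 of 11 at 30 points (6.06%), and 3 of 23 were called lower with runs of at least 5 positions (12.1%). The causes were not tested, beyond the number of runs each setting leaves.

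The median difference of the 5 genes moved under these settings. Over runs of at least 5 positions it was 30.6 points for iPSC-DA minus mdDA neurons (32.6 before), 31.0 for iPSC-DA neurons minus iPSCs (33.2 before) and 20.6 for iPSC-DA neurons minus precursors (24.9 before). The last was also 21.2 with a minimum of 10 calls, which left 4 genes, 21.9 with a minimum of 1 call and 21.5 as an unweighted mean of positions. Among gene differences past 20 points, the one that turned was that of Otx2 for iPSC-DA neurons minus precursors, from 28.7 to -0.863 points over runs of at least 5 positions, and the cause was not tested. The small mdDA minus iPSC differences also changed sign: over runs of at least 5 positions that of En1 went from 0.412 to -1.17 points and that of Otx2 from -0.756 to 1.17, and with coverage asked of the 2 libraries compared that of En1, also the median of the genes, was -0.194. Of the values for single genes, 32 moved and 162 did not. Depth limits the precursor values most, with a median of 14 calls per member position.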
